A study of Oryza sativa with 12 samples.

Results

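Brittle culm genes of rice are known from mutants whose stems snap easily. Besides the cellulose synthases, 7 genes of this kind, with OsGLU1 counted among them, were followed here: BC1 (LOC_Os03g30250), BC3 (LOC_Os02g50550), BC10 (LOC_Os05g07790), BC12 (LOC_Os09g02650), BC14 (LOC_Os02g40030), BC15 (LOC_Os09g32080) and OsGLU1 (LOC_Os03g21210). They were chosen by locus identifier, with no threshold on their values, as 7 of the 55986 genes in the expression table. RNA came from culms, the jointed stems, of the japonica cultivar Zhonghua 11 at the heading stage, when the panicle emerges. There were 4 groups of 3 libraries: the unmodified cultivar (WT), a TAC4L-KO line, a TAC4-KO line and one labelled TAC4L/TAC4-KO, called double-KO here. Sample titles name the lines knockouts and the genotype field names them knockdowns. Neither the kind of edit, nor the number of independent lines, nor whether the replicates were separate plants is given in the sources used here, so the spread that p-values rest on is that between libraries and may be technical. The study was set up around brittle culms in the double mutant, and the question addressed is how the transcripts of genes known for this phenotype stood in the 4 genotypes.

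Most of the strength of a rice culm comes from secondary walls, which are laid down inside the primary wall once a cell has stopped growing and are built on cellulose. Cellulose is spun out at the plasma membrane by complexes of cellulose synthases, while other wall sugars are assembled in the Golgi. Brittle culm genes act around that machinery. BC1, BC15 and OsGLU1 encode proteins of the cell surface or membrane, BC10 and BC14 encode Golgi proteins, BC3 encodes a membrane-trafficking protein and BC12 a microtubule motor. Loss of any of these weakens the culm or changes its cellulose in rice.

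The deposited values were FPKM (fragments per kilobase of gene, scaled to library size), so that levels of genes of different length can be set side by side. Depth inferred from the spacing of low FPKM values was 9.8 to 25.2 M (mega) fragments a library, lowest in WT replicate 1 at 9.8. At these depths the lowest value of any brittle culm gene, BC10 in WT replicate 1, stood for 42.3 fragments per kilobase. TAC4 (LOC_Os02g25230) was at 5.89 ± 1.31 FPKM in WT, 15.0 ± 1.68 in double-KO, 11.4 ± 2.21 in TAC4-KO and 8.80 ± 0.893 in TAC4L-KO (SD, n = 3). Against WT it was called higher in double-KO (1.23 on the log2(FPKM + 1) scale, limma adjusted p = 0.00041) and in TAC4-KO (0.85, limma adjusted p = 0.0062), the opposite of what the label knockdown names. TAC4L (LOC_Os04g19140) was between 0.28 and 0.88 FPKM in all 12 libraries, under the filter for testing. FPKM over a whole gene cannot reveal a small edit, so these levels neither bear out a knockdown nor test a knockout, and each group below means the libraries that carry that label. The secondary wall cellulose synthases OsCESA4, OsCESA7 and OsCESA9, which mark stem mechanical tissue, summed to 598 to 1039 FPKM in WT. Markers of green tissue (7 of 7 detected) summed to 3650 to 7884 FPKM in WT, 10921 to 12563 in TAC4-KO, 5855 to 6551 in TAC4L-KO and 6350 to 8003 in double-KO. Most of the WT sum was 1 Rubisco small subunit gene (LOC_Os12g19381), with a mean of 5397 FPKM in WT and 2637 in double-KO, where it was called lower. Of the other 6 markers, 4 were called higher in double-KO, among them a light-harvesting gene (LOC_Os01g52240) with means of 3193 FPKM in double-KO and 159 in WT, and all 6 in TAC4-KO. Floral organ markers (10 listed, of which 1 passed the filter) summed to 78.6 to 112 FPKM in double-KO and to 18.7 to 38.3 in the other groups. Nearly all of each sum was that 1 gene, OsMADS16, with means of 96.5 FPKM in double-KO and 26.6 in WT. The other floral markers averaged under 1 FPKM. Phloem markers (both detected) summed to 168 to 191 FPKM in WT and to 215 to 813 in the mutants. Of the pair, SUS1 was called higher in TAC4-KO and double-KO, while SUT1 was not called against WT in any mutant group and was at 93.2 FPKM in double-KO and 103 in WT. The 4 markers of dividing cells, of which 2 passed the filter, summed to 22.4 to 23.4 FPKM in double-KO and 8.11 to 28.1 elsewhere. Most of each sum was PCNA, with means of 19.5 FPKM in double-KO and 15.8 in WT. PCNA was not called against WT in any mutant group, and both B-type cyclins stayed under 1 FPKM. No marker was at 0 in every library, and the part of these cells in the results below was not tested. In whole culms, fewer cells of a type cannot be told apart from less RNA per cell.

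In WT culms the 7 genes ran from below 6 to above 67 FPKM. BC15 stood highest at 67.1 ± 15.3 FPKM (SD, n = 3), followed by BC1 at 28.0 ± 9.25 and BC12 at 20.5 ± 5.34. OsGLU1 stood at 14.5 ± 5.02, BC3 at 10.5 ± 0.541, BC14 at 6.38 ± 1.30 and BC10 at 5.80 ± 1.29. By its mean over the 12 libraries BC15 was above 96.0% of the 19184 tested genes, BC1 above 89.9%, and BC14, the lowest, above 42.4%. The ranges of neighbours in the WT order overlapped for BC1 with BC12, BC12 with OsGLU1, OsGLU1 with BC3, and BC14 with BC10, and not for BC15 with BC1 or BC3 with BC14.

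**Figure D1:**
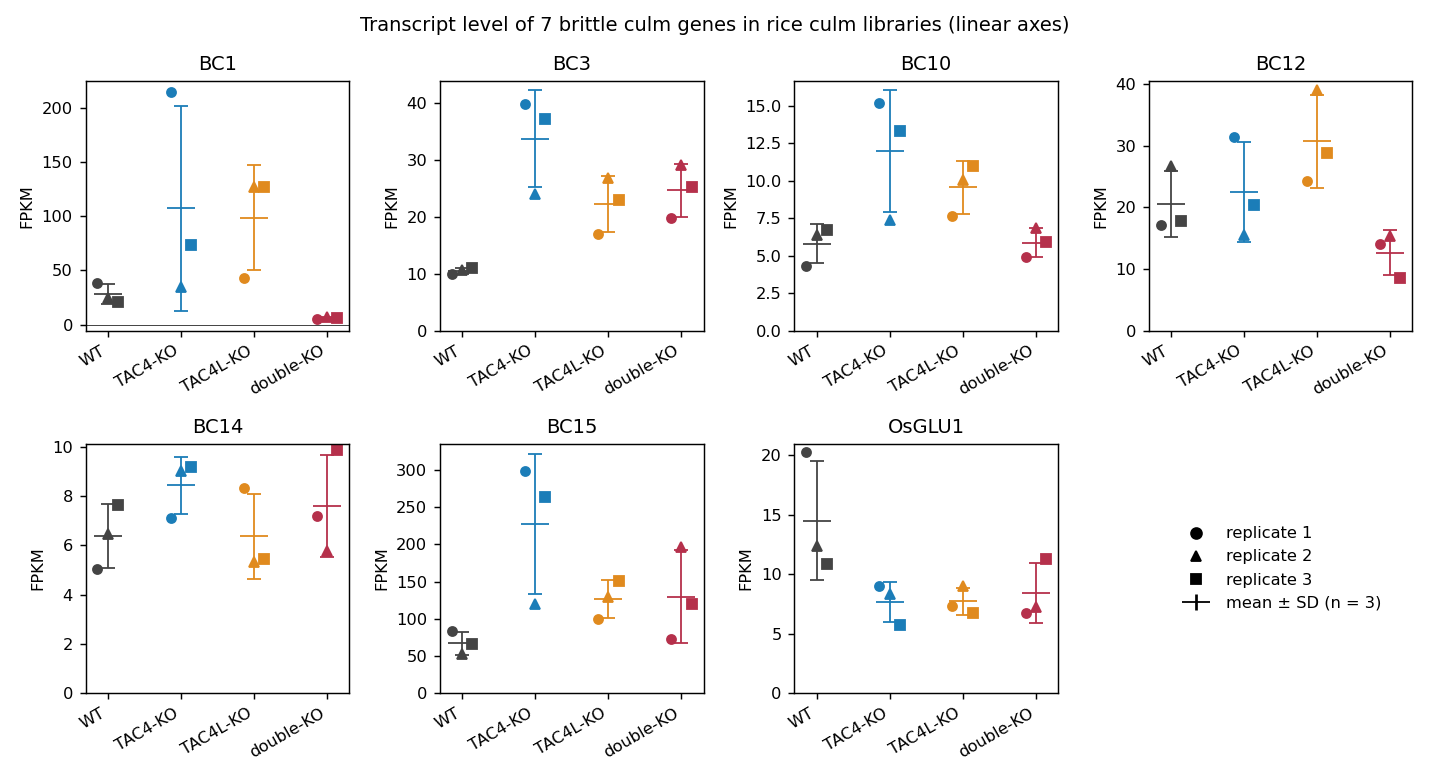
FPKM of each brittle culm gene (linear axes from 0) in the 3 libraries of each genotype, with symbols for replicates, and bars for the mean ± SD. BC1 is above 35 FPKM in all 6 single-mutant libraries and below 7 in all 3 double-KO libraries, whereas BC3 is near 10 in WT and at 17 or more in every mutant library.

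BC1, a COBRA-like protein anchored at the cell surface that binds cellulose and aids its assembly, was lower in double-KO than in each of the other groups and higher in TAC4-KO than in WT. It was at 38.5, 24.4 and 21.1 FPKM in WT replicates 1 to 3, at 214, 35.1 and 73.0 in TAC4-KO, at 43.0, 127 and 127 in TAC4L-KO, and at 5.13, 6.87 and 6.35 in double-KO. All 3 double-KO libraries lay below every other library, and the TAC4L-KO libraries lay above those of WT, while TAC4-KO replicate 2 fell inside the WT range. Such separation was common in these data. Between double-KO and WT, 54.3% of tested genes did not overlap, beside 3 of 7 brittle culm genes. The shares were 48.1% for TAC4-KO and WT (4 of 7) and 30.2% for TAC4L-KO and WT (5 of 7). For double-KO they were 41.4% with TAC4-KO and 52.4% with TAC4L-KO (3 of 7 each), and between the single mutants 30.6% (0 of 7). Mean FPKM of BC1 was 4.58-fold lower in double-KO than in WT, 17.6-fold lower than in TAC4-KO and 16.1-fold lower than in TAC4L-KO. On the log2(FPKM + 1) scale, which all changes and tests below use and which understates changes of low genes, the change from WT to double-KO was -1.99 (SE 0.57, limma adjusted p = 0.013, adjusted over all tested genes, where values under 0.05 are called). BC1 rose by 1.57 in TAC4-KO (SE 0.57, limma adjusted p = 0.050, unrounded 0.0495). Of 13 alternative settings (6 libraries left out in turn and 7 other choices of filter, scaling or fit), 10 ended that call. Without TAC4-KO replicate 1 the change was 0.88 (limma adjusted p = 0.19), and it also missed the threshold without TAC4-KO replicate 3 (1.65) or any WT library (1.39 to 1.81). The change of 1.67 in TAC4L-KO did not pass (limma adjusted p = 0.084, 95% interval 0.44 to 2.91), but did without TAC4L-KO replicate 1, at 2.18. Group means ran from double-KO through WT and TAC4L-KO to TAC4-KO, and the 2 single mutants did not differ beyond their spread.

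OsGLU1, a membrane-bound endoglucanase of the KORRIGAN type that acts in cellulose synthesis, was highest in WT. It was at 20.2, 12.4 and 10.9 FPKM in WT replicates 1 to 3, at 8.97, 8.32 and 5.76 in TAC4-KO, at 7.33, 9.02 and 6.78 in TAC4L-KO, and at 6.72, 7.23 and 11.3 in double-KO. WT lay above both single mutants without overlap, whereas double-KO replicate 3 reached into the WT range. OsGLU1 fell by 0.81 in TAC4-KO (limma adjusted p = 0.031). Its change of -0.70 in double-KO also passed (limma adjusted p = 0.042), and each had an SE of 0.26. The change of -0.79 in TAC4L-KO was of like size and did not pass (limma adjusted p = 0.077). Without WT replicate 1, the shallowest library and the highest for this gene, the changes were -0.56, -0.45 and -0.54 in TAC4-KO, double-KO and TAC4L-KO, and neither call held. The call in TAC4-KO also ended without TAC4-KO replicate 3 (-0.64). The 3 mutant groups overlapped one another.

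BC15, a membrane-associated chitinase-like protein needed for normal cellulose, was the most abundant of the 7 genes in every mutant group. It was at 83.1, 52.6 and 65.7 FPKM in WT, at 298, 120 and 264 in TAC4-KO, at 99.95, 130 and 151 in TAC4L-KO, and at 72.5, 196 and 120 in double-KO. Every single-mutant library exceeded every WT library, and double-KO replicate 1 lay inside the WT range. BC15 rose by 1.67 in TAC4-KO (SE 0.39, limma adjusted p = 0.0076), a call that held in all 13 alternative settings. The changes of 0.91 in TAC4L-KO and 0.85 in double-KO did not pass (limma adjusted p = 0.15 and 0.092). Without double-KO replicate 1 the change in double-KO was 1.21 and passed (limma adjusted p = 0.029).

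BC10, a Golgi membrane protein that resembles glycosyltransferases, was higher in TAC4-KO than in WT, while in double-KO its mean was within 0.1 FPKM of that of WT. WT had 4.32, 6.36 and 6.71 FPKM and double-KO 4.88, 6.84 and 5.88, beside 15.2, 7.37 and 13.3 in TAC4-KO and 7.61, 10.03 and 11.0 in TAC4L-KO. Both single mutants lay above WT and above double-KO without overlap. The rise in TAC4-KO was 0.89 (SE 0.26, limma adjusted p = 0.020), the change in TAC4L-KO was 0.64 (limma adjusted p = 0.13), and double-KO differed from WT by 0.02 with a 95% interval from -0.54 to 0.59. Without TAC4-KO replicate 1, TAC4-KO replicate 3 or WT replicate 1 the rise in TAC4-KO was 0.71, 0.80 or 0.73 and missed the threshold.

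BC14, a Golgi transporter of nucleotide sugars that feeds glucan synthesis, was the steadiest of the 7 genes. It was at 5.03, 6.48 and 7.63 FPKM in WT, at 7.11, 9.02 and 9.19 in TAC4-KO, at 8.34, 5.32 and 5.44 in TAC4L-KO, and at 7.19, 5.78 and 9.87 in double-KO. All 4 groups overlapped. Against WT the changes were 0.36 in TAC4-KO, -0.01 in TAC4L-KO and 0.21 in double-KO, and the 95% intervals together ran from -0.51 to 0.86, so a change of 1 log2 unit lay outside each of them.

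BC3, a dynamin-related protein that acts in membrane trafficking, was the only 1 of the 7 genes called in all 3 mutant groups against WT. Outside the 7, OsCESA3, a primary wall cellulose synthase, was also called higher in all 3. WT libraries had 9.95, 10.6 and 11.0 FPKM, those of TAC4-KO 39.9, 24.0 and 37.3, those of TAC4L-KO 17.1, 26.8 and 22.9, and those of double-KO 19.8, 29.1 and 25.2. All 9 mutant libraries exceeded the highest WT library, as they also did for OsCESA3. The share of all tested genes called in all 3 groups, or separated in this way, was not computed. With an SE of 0.23 in each case, BC3 rose by 1.56 in TAC4-KO, by 1.14 in double-KO and by 0.99 in TAC4L-KO (limma adjusted p = 0.00089, 0.0019 and 0.030). The first 2 calls held in all 13 alternative settings each. The call in TAC4L-KO was lost without WT replicate 1 or 3 or TAC4L-KO replicate 2 or 3, with changes of 0.95, 1.02, 0.85 and 0.96, and with TAC4L-KO and WT fitted alone (limma adjusted p = 0.10). The mutant groups overlapped one another in the order TAC4L-KO, double-KO, TAC4-KO.

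BC12, a kinesin that moves along microtubules and affects how cellulose fibrils are laid down, was lowest in double-KO. It was at 17.1, 26.7 and 17.8 FPKM in WT, at 31.4, 15.6 and 20.3 in TAC4-KO, at 24.3, 38.9 and 28.8 in TAC4L-KO, and at 14.1, 15.3 and 8.59 in double-KO. The double-KO libraries lay below every other library. The change from WT to double-KO was -0.67 and did not pass (limma adjusted p = 0.083, 95% interval -1.31 to -0.02), nor did those of 0.09 in TAC4-KO and 0.56 in TAC4L-KO. Against TAC4L-KO, double-KO was lower by a log2 change of -1.22 (SE 0.30, limma adjusted p = 0.0083), which held in all 13 alternative settings.

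Counts of called brittle culm genes are set here beside the share of all tested genes called in the same comparison. In double-KO against WT, 3 of 7 were called, 1 higher (BC3) and 2 lower (BC1 and OsGLU1), where 47.4% of the 19184 tested genes were called, 20.1% higher and 27.3% lower, so 3 of 7 is near the background. Among all genes called there, 57.6% were lower as deposited, 51% after median-of-ratios scaling and 44.4% after quantile normalization. The median log2 change of the 7 genes was 0.02, beside -0.10 over all tested genes (-0.01 and 0.08 under those scalings). The OsGLU1 call ended in 9 of 13 alternative settings: it missed the threshold when WT replicate 1 (-0.45), WT replicate 2 (-0.79), double-KO replicate 1 (-0.58) or double-KO replicate 2 (-0.62) was left out, under both other scalings, without a filter (limma adjusted p = 0.067) and with double-KO and WT fitted alone (0.086), among others.

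In TAC4-KO against WT, 5 of 7 were called, with BC1, BC3, BC10 and BC15 higher and OsGLU1 lower. The background was 34.9% called, 18.4% higher and 16.5% lower. The median log2 change was 0.89 for the 7 genes and 0.04 over all tested genes. The 4 rises came in the group with the highest green tissue sums and 6 of 7 green tissue markers called higher. Of the 5 calls, 2 were left without WT replicate 1 or without TAC4-KO replicate 3, and these were BC3 and BC15 in both cases. Without TAC4-KO replicate 1 there were 3, with OsGLU1 added.

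In TAC4L-KO against WT, 1 of 7 was called, BC3, which was higher, with 0 lower. The background was 7.18%, with 3.68% higher and 3.5% lower. Of all calls there, 48.8% were lower as deposited, 64.7% after median-of-ratios scaling and 51.5% after quantile normalization. At an unadjusted limma p under 0.05 there were 4 higher and 1 lower, where at least 5114 of the 19184 tested genes were also under it in either direction. The median log2 change was 0.64 for the 7 genes, beside 0.10 over all tested genes (-0.01 and 0.06 rescaled). These 3 comparisons share the WT libraries, so their calls are not independent of each other.

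**Figure D2:**
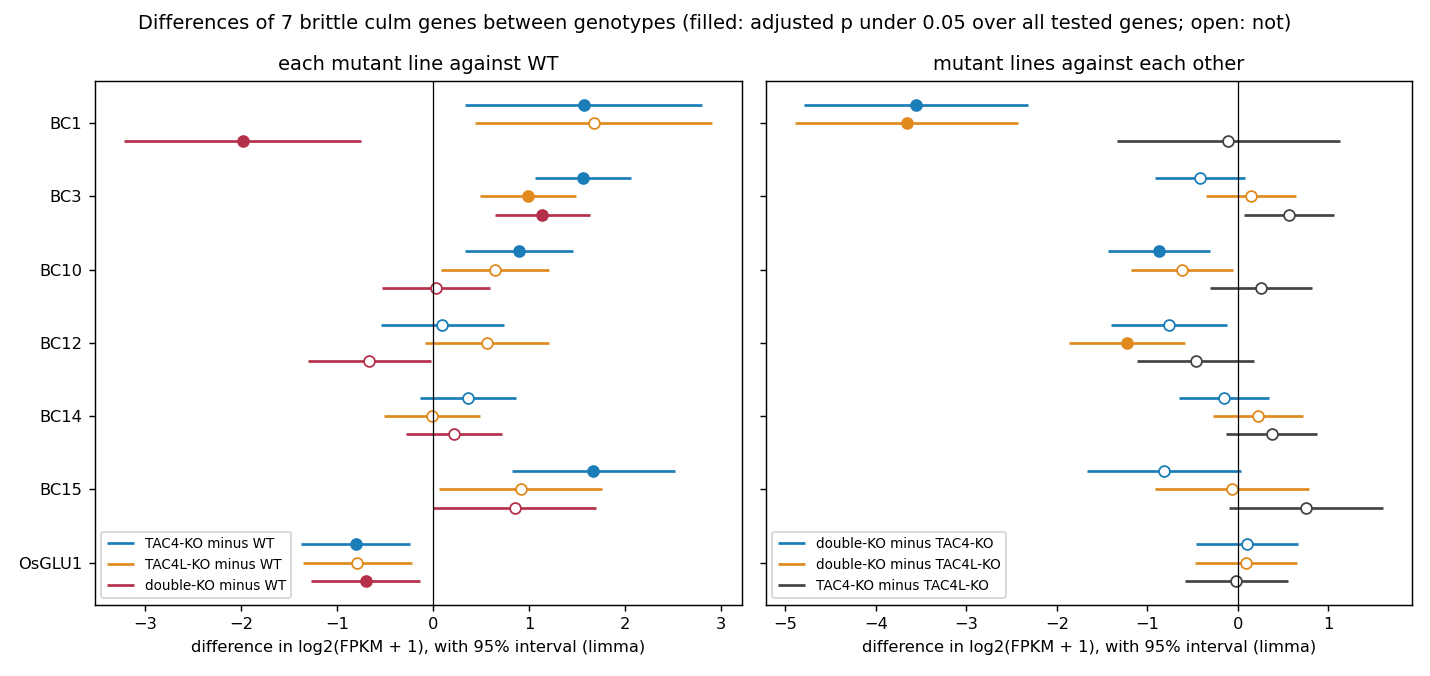
Difference in log2(FPKM + 1) with its 95% interval for each brittle culm gene, each mutant group against WT (left) and the mutant groups against each other (right); filled points passed an adjusted p of 0.05. BC1 is above 0 in both single mutants and below 0 in double-KO, and its differences of -3.55 and -3.66 from the single mutants to double-KO are the largest shown.

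Between the mutant groups, BC1 differed most. In double-KO against TAC4-KO, 2 of 7 were called lower and 0 higher, BC1 (-3.55, SE 0.57, limma adjusted p = 0.0022) and BC10 (-0.87, SE 0.26, limma adjusted p = 0.042). The background was 15% called, 4.88% higher and 10.1% lower, and the lower share of all calls was 67.5% as deposited, 51.2% after median-of-ratios scaling and 47.2% after quantile normalization. Leaving out TAC4-KO replicate 1 or 3, or any double-KO library, ended the BC10 call, with changes of -0.97 to -0.68, and so did both other scalings. In double-KO against TAC4L-KO, 2 of 7 were called lower and 0 higher, BC1 (-3.66, SE 0.57, limma adjusted p = 0.00072) and BC12, where 35% of tested genes were called, 11.6% higher and 23.4% lower (a lower share of 66.9%, and 48.2% and 45.1% under those scalings). All-gene medians were -0.12 and -0.20 in these 2 comparisons as deposited, and between -0.01 and 0.05 after rescaling. At an unadjusted limma p under 0.05, each of these comparisons had 3 lower and 0 higher. Over all tested genes and both directions, at least 5344 were under it in double-KO against TAC4-KO and at least 8635 in double-KO against TAC4L-KO. In TAC4-KO against TAC4L-KO limma called 0 of 7. The background was 3.04%, with 1.68% higher and 1.37% lower (a lower share of 44.9%, and 34.8% and 38.7% rescaled). At an unadjusted limma p under 0.05 there was 1 (BC3, higher in TAC4-KO by 0.57), where at least 3529 tested genes were also under it. The interval of the difference between the single mutants was widest for BC1, from -1.34 to 1.13.

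With both single mutants and the double in hand, additivity can be tested. The interaction takes double-KO plus WT and subtracts both single mutants, on the log2(FPKM + 1) scale, and 0 means that the single changes add up. It was below 0 and called for 3 of 7 genes, with 0 called above 0, where 15.1% of tested genes were called, 4.11% above and 11% below 0. The share below 0 among all calls was 72.7% as deposited, 50.2% after median-of-ratios scaling and 54.2% after quantile normalization. For BC1 the single changes added to the WT mean give a level of 264 FPKM, and the double-KO stood at 6.08 (both back-transformed from means of logs), an interaction of -5.23 (SE 0.80, limma adjusted p = 0.0022). For BC3 the sum is 66.4 FPKM and double-KO stood at 24.4, an interaction of -1.41 (SE 0.32, limma adjusted p = 0.015). For BC10 the sum is 18.4 and double-KO stood at 5.82, an interaction of -1.51 (SE 0.37, limma adjusted p = 0.019). BC3 was thus raised over WT in double-KO as in each single mutant, but by less than the sum of both. BC1 and BC3 kept this call in all 18 alternative settings, whereas BC10 lost it without TAC4-KO replicate 1 (-1.32) or TAC4L-KO replicate 2 (-1.47), each at a limma adjusted p = 0.052.

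BC12 and BC15 had interactions of -1.32 and -1.73, which missed the threshold (limma adjusted p = 0.054 each). Both passed without TAC4-KO replicate 2, at -1.54 and -2.13, and without TAC4L-KO replicate 1, at -1.47 and -1.89. BC12 also passed without WT replicate 2 (-1.51), and BC15 without double-KO replicate 2 (-2.08). BC14 was near additive, at -0.14 with a 95% interval from -0.85 to 0.57. OsGLU1 was the 1 gene above 0, at 0.90 (limma adjusted p = 0.11). At an unadjusted limma p under 0.05 there were 5 below and 1 above 0, where at least 5180 tested genes were also under it in either direction. The median was -1.41 for the 7 genes and -0.19 over all tested genes (0.04 and 0.02 rescaled).

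**Figure D3:**
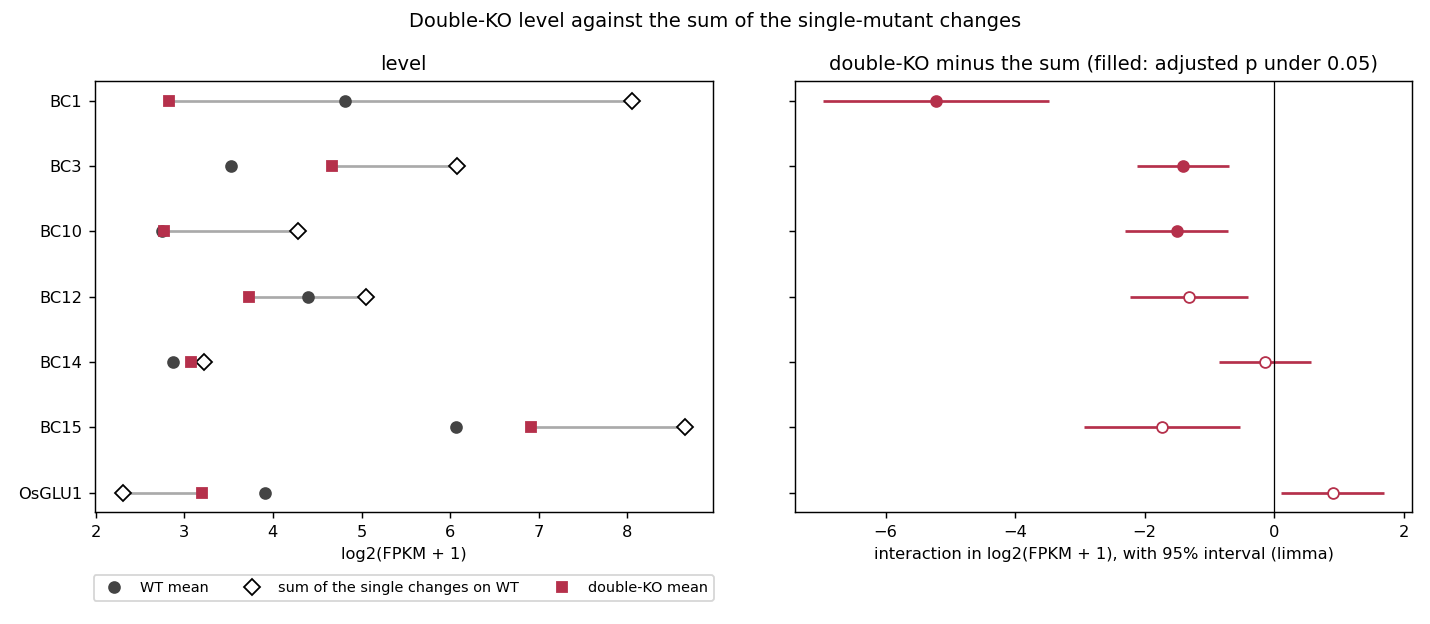
Left, mean log2(FPKM + 1) of each brittle culm gene in WT, in double-KO and as the sum of the single-mutant changes added to WT; right, the interaction with its 95% interval, filled where the adjusted p is under 0.05. The double-KO mean lies left of the sum for every gene except OsGLU1, and the gap is widest for BC1 (-5.23).

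Replicates of BC1 differed most in the single mutants, and several genes deviated in the same libraries. The highest value of BC1 was 6.10 times the lowest in TAC4-KO and 2.94 times in TAC4L-KO, against 1.83 times in WT and 1.34 times in double-KO. BC3, BC10 and BC12 also had their widest spread in TAC4-KO, whereas BC14 and BC15 had theirs in double-KO (1.71 and 2.71 times) and OsGLU1 in WT (1.86 times). TAC4-KO replicate 1 was above its group mean for 6 of 7 genes, with BC1 at 1.37 and BC12 at 0.53 above on the log2 scale. TAC4-KO replicate 2 was below its mean for 5 of 7, with BC1 at -1.20 and BC15 at -0.81. TAC4L-KO replicate 1 was below its mean for 6 of 7, with BC14 (0.37) as the exception. The shares of all tested genes above or below the mean in these libraries were not computed.

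Across the 12 deviations from the group means, the 10 pairs among BC1, BC3, BC10, BC12 and BC15 had correlations of 0.32 to 0.88. The strongest was BC3 with BC10. BC14 ran the other way, at -0.66 to -0.22 with those 5 genes, and OsGLU1 had values from -0.32 to 0.33. These describe libraries that share depth and scaling for all genes and carry no test, and other tested genes were not compared. The grouping of the 5 genes was made after their values were seen.

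**Figure D4:**
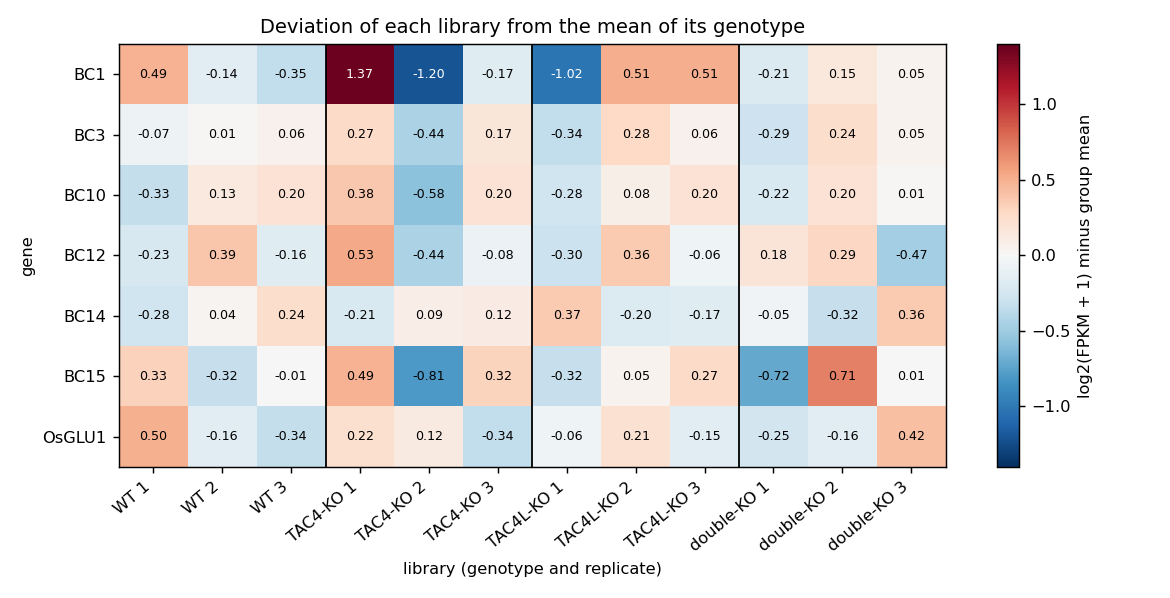
Log2(FPKM + 1) of each brittle culm gene in each of the 12 libraries minus the mean of its genotype, printed in each cell and coloured red above and blue below the mean. TAC4-KO replicates 1 and 2 and TAC4L-KO replicate 1 stand out for BC1 (1.37, -1.20 and -1.02), and BC3, BC10, BC12 and BC15 have the same sign there.

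Among wall genes, the profile most like that of BC1 was that of a secondary wall cellulose synthase. Likeness was the root mean square difference of log2(FPKM + 1) over the 12 libraries, each profile centred on its own mean, among 28 tested wall genes. For BC1 the nearest were OsCESA4 at 0.71 and OsMYB103L, a MYB regulator of cellulose genes, at 0.73, while 0.255% and 0.281% of tested genes were nearer. BC1 itself varied by 1.63 on that measure. The nearest to BC3 were OsCESA3, a primary wall cellulose synthase, at 0.28 and BC15 at 0.32. The nearest to BC15 were OsCESA1, also of the primary wall, at 0.30 and then BC3. Only 9 tested genes were nearer to BC15 than OsCESA1 was. The nearest to BC12 were IRX9L and IRX14, genes of xylan synthesis, each at 0.28. BC10 had OsCESA2 at 0.36 and IRX14 at 0.37, while 4.45% and 5.51% of tested genes were nearer and BC10 itself varied by 0.47. BC14 had XAT3, a xylan arabinosyltransferase, at 0.24, while 0.792% of tested genes were nearer. BC14 itself varied by only 0.28, so a flat profile would have been nearly as close. For its second place and for both places of OsGLU1 (OsMYB61 and BC14) over 37% of all tested genes were nearer than the gene named.

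BC1 was also set against the secondary wall cellulose synthases, as a ratio. For each 100 FPKM of OsCESA4, OsCESA7 and OsCESA9 summed, BC1 was at 3.70, 2.87 and 3.52 FPKM in WT, at 15.6, 7.01 and 12.2 in TAC4-KO, at 4.27, 7.64 and 10.2 in TAC4L-KO, and at 6.22, 7.41 and 16.7 in double-KO. All 9 mutant libraries lay above the 3 of WT. How many other genes would separate in this way over the same sum was not computed. A factor applied to a whole library leaves this ratio as it is. In double-KO both terms were low, the sum at 38.0 to 92.7 FPKM, so BC1 was lower than in WT by less than the synthases were. The highest double-KO ratio, 16.7, came from the library with the lowest sum, 38.0 FPKM. The log2 difference of the ratio from WT was 1.45 in double-KO, 1.72 in TAC4-KO and 1.05 in TAC4L-KO, each with a two-sided exact permutation p = 0.1, the smallest that 3 against 3 libraries allow. The ratio was chosen after the values were seen.

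**Figure D5:**
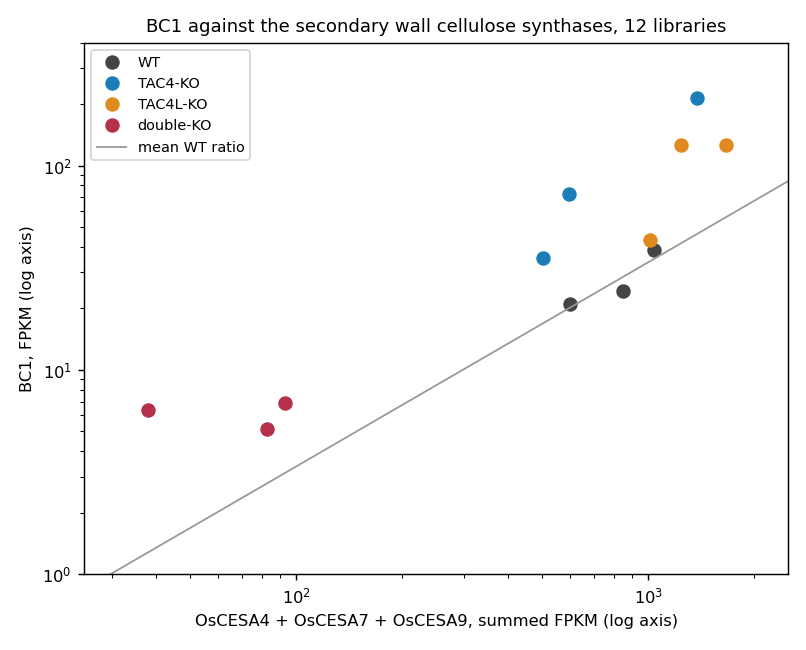
BC1 FPKM against the summed FPKM of OsCESA4, OsCESA7 and OsCESA9 in the 12 libraries, on log axes, coloured by genotype; the line is the mean WT ratio of 3.37 BC1 for each 100 of the sum. All 9 mutant libraries lie above the line, as do WT replicates 1 and 3 (3.70 and 3.52), and the double-KO libraries are low on both axes.

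Other wall genes were counted in the same way, and their counts are read against the shares of all tested genes called higher and lower given above for each comparison. All 3 secondary wall cellulose synthases were called lower in double-KO against WT (median log2 change -3.37) and 0 of 3 in either direction in TAC4-KO or TAC4L-KO against WT (medians -0.03 and 0.74). At an unadjusted limma p under 0.05 that count was also 0 in both. Primary wall cellulose synthases were called higher for 3 of 6 in double-KO, 4 of 6 in TAC4-KO and 2 of 6 in TAC4L-KO, with 0 lower. Of 5 tested secondary wall regulators, 2 were lower in double-KO, where 27.3% of all tested genes were lower and 20.1% higher, and 2 were higher in TAC4-KO, where 18.4% were. Of 8 genes making xylan or mixed-linkage glucan, 1 was higher and 3 lower in double-KO, and 1 was higher in TAC4-KO, counts near those shares. For the interaction, 3 of 3 secondary wall cellulose synthases (median -4.13), 2 of 6 primary wall ones, 4 of 5 regulators and 3 of 8 xylan genes were called below 0, and none of these above.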

How the data were processed

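The authors deposited 1 table of FPKM values, 1 column per library. HISAT2 is the tool that the submitters' processing notes name. The sources used here do not give its version, the quantifier, the genome build, the annotation or the strand setting. The labels' protocols describe poly(A) selection and random-hexamer priming. Overlapping, antisense or near-identical genes may therefore share reads.

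The filter was a mean over the 12 libraries of 1 FPKM or more, which kept 19184 of 55986 genes, all 7 brittle culm genes among them. limma 3.58.1 (R 4.3.3; trended prior) fitted log2(FPKM + 1) of the 4 groups together, leaving 8 residual degrees of freedom. Benjamini-Hochberg adjustment ran over every tested gene, and a gene was called under 0.05. The fit was tested on simulated data. Exact permutation tests are two-sided, and with 3 against 3 libraries cannot go below 0.1, the value that every brittle culm gene without overlap between a pair of groups had.

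Depth came from low FPKM values, which are whole multiples of 1 fragment. Whole-number gene lengths for 490 genes set its scale (coherence 0.84, against 0.58 at best elsewhere). No 2 libraries were identical (66 pairs).

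Members, lists, tests and alternatives were chosen with earlier results of these data known. All 7 genes are named in each comparison. Names were paired with loci from published rice nomenclature: 0 locus identifiers matched the reference (gene names of ASM3414082v1), and BC1 and OsGLU1 were found there on chromosome 3, which their identifiers state, while 5 symbols were not found. No sequences are given.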

Additional observations from a re-analysis of the deposited data

Results flagged for a closer look

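The interaction, which asks whether the effect of losing 1 gene differs with the state of the other, passed the test for 3 brittle culm genes: BC1 at -5.23, BC3 at -1.41 and BC10 at -1.51 on the log2(FPKM + 1) scale (limma adjusted p = 0.0022, 0.015 and 0.019). For BC1 the TAC4-KO label went with a change of 1.57 beside WT and of -3.66 beside TAC4L-KO. For BC3 these changes were 1.56 and 0.15, and for BC10 they were 0.89 and -0.62. Groups of 3 libraries were not screened for single outlying samples.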

How the results depend on the processing

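Alternatives were a pseudocount of 0.1, no filter, a filter of 5 FPKM, median-of-ratios scaling, quantile normalization, the replicate number as a block, a fit of the compared groups only, and leaving out each library; the causes of the moves below were not tested. Over all brittle culm genes and comparisons, 307 values kept direction and side of the threshold in the settings with all libraries, 21 lost a call, 2 gained one and 6 changed sign. With 1 library left out these counts were 281, 25, 8 and 22. BC1 and BC3 in double-KO against WT, BC3 and BC15 in TAC4-KO against WT, BC1 in double-KO against each single mutant, BC12 in double-KO against TAC4L-KO and the interactions of BC1 and BC3 were called in all of them.

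The number of genes called in double-KO against WT (3) was 2, with OsGLU1 lost, without a filter, under either scaling, with the replicate block, with the compared groups only, and without WT replicate 1, WT replicate 2 or double-KO replicate 2. The number of genes called in TAC4-KO against WT (5) was 3 without a filter, 3 with the replicate block and 2 with the compared groups only. In double-KO against TAC4-KO (2) it was 1 in each of the no-filter, median-of-ratios, quantile, replicate block and compared-groups settings. In TAC4L-KO against WT (1) it was 0 with the block and 0 with the compared groups only. With 1 library left out it ran from 2 to 5 in TAC4-KO against WT, 0 to 2 in TAC4L-KO against WT, 1 to 2 in double-KO against TAC4-KO and 2 to 5 for the interaction. Same-numbered libraries deviated with correlations of -0.43 to 0.27, of both signs. Pairs of unlike number were not computed beside them, so whether the numbers pair the libraries was not tested. Over all genes, 1378 were called in TAC4L-KO against WT, but 856 without a filter, 665 with the block and 32 with the compared groups only; in TAC4-KO against TAC4L-KO the counts were 584, 249, 394 and 74. Leaving out TAC4L-KO replicate 1, 2 or 3 or WT replicate 1 or 3 gave 2166, 140, 137, 869 and 292 calls in TAC4L-KO against WT, so the background there rests on single libraries. In TAC4-KO against TAC4L-KO, leaving out TAC4L-KO replicate 1, 2 or 3 or TAC4-KO replicate 1 or 3 gave 92, 38, 1360, 255 and 58. In double-KO against TAC4-KO, 2883 became 1468 without TAC4-KO replicate 1 and 1910 or 1433 without double-KO replicate 1 or 3. The interaction's 2894 became 1558, 1469 or 1572 without TAC4-KO replicate 1, TAC4L-KO replicate 2 or double-KO replicate 3. In double-KO against TAC4L-KO, 6714 became 4004 or 4284 without the last 2 of these, and in TAC4-KO against WT 6693 became 4341 without TAC4-KO replicate 3.

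All sign changes were of values not called on either side. Median-of-ratios scaling gave 0.17 for BC15 in double-KO against TAC4L-KO, 0.064 for OsGLU1 in TAC4-KO against TAC4L-KO and 0.10 for the BC14 interaction. Quantile normalization gave 0.037 for BC14 in double-KO against TAC4-KO, 0.072 for OsGLU1 in TAC4-KO against TAC4L-KO and 0.11 for the BC14 interaction. With 1 library left out, BC10 in double-KO against WT ran from -0.14 to 0.13, BC12 in TAC4-KO against WT from -0.17 to 0.32 and BC14 in TAC4L-KO against WT from -0.19 to 0.11. The BC14 interaction ran from -0.32 to 0.043. In double-KO against TAC4-KO, BC14 ran from -0.33 to 0.0075 and OsGLU1 from -0.10 to 0.23. In TAC4-KO against TAC4L-KO, BC1 ran from -0.79 to 0.50 and OsGLU1 from -0.13 to 0.15. In double-KO against TAC4L-KO, BC3 ran from -0.022 to 0.29, BC15 from -0.42 to 0.30 and OsGLU1 from -0.12 to 0.22.

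With 3 libraries a group, the 95% interval for BC1 between the single mutants ran from -1.34 to 1.13, so differences within it were not excluded.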
